A study of Mus musculus with 8 samples.

Results

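Immediate early response genes are transcribed within minutes of a stimulus, without new protein synthesis, and their transcripts usually decay quickly. The 10 genes described here are Fos, Fosb, Jun, Junb, Jund, Egr1, Ier2, Ier3, Atf3 and Dusp1, chosen by name from the 23084 genes of the deposited expression table, and all 10 were listed in it. Kinases of the MAPK family act on transcription factors already present in the nucleus, such as SRF with its ELK partners and CREB, and these start transcription of the group. Many of its products are transcription factors themselves, and Dusp1 encodes a phosphatase that switches the kinases off again. In leukocytes the group responds to cytokines, adhesion and stress, and it is also known to rise while tissue is dissociated and cells are sorted.

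The study sequenced RNA of splenic myeloid cells, sorted as CD11b+Ly6C+ (monocytic) or CD11b+Ly6G+ (granulocytic), from C57BL/6 mice aged 6 to 8 weeks. The 8 samples formed 4 groups of 2, wt and Lmna knockout cells of each subset, where LysM-Cre recombines floxed Lmna alleles in myeloid cells. Titles gave the subset of each sample, because 1 and the same marker label was attached to all 8. Whether the wt mice carried Cre or floxed alleles is not given in the sources used here. LysM-Cre is driven by the lysozyme gene Lyz2, so recombination depends on how strongly a cell uses that gene. The measurement analysed was the authors' mean per gene of read counts divided by size factors, which is 1 value for each gene with no spread between samples. The genotype comparison of the 10 genes was not analysed here, because it rests on columns of the authors' own test. Levels of different genes were therefore described, after division by transcript length in kb, and no difference was tested.

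The lowest means in the column followed a regular pattern. All 1223 genes with a mean under 0.4 were whole sums, within a tolerance of 1e-06, of 8 fixed step sizes between 0.0539 and 0.0916, each read here as what 1 read in 1 library added to the mean. There were as many steps as samples in the series, and leaving out any 1 step lowered the share of whole sums from 100% to between 0% and 83.7%. The search added steps until nearly all low means were whole sums and dropped any step not needed for that. A near-complete fit and some drop for each step were therefore built in. Over 8 libraries these steps would mean size factors from 1.36 to 2.32, all above 1, although such factors usually centre on 1, so read numbers derived from the steps rest on an assumption that the table cannot settle. The steps carry no sample names, so values were not assigned to groups. The markers that define both sorts were high in the mean per kb. Ly6g, which defines the granulocytic gate, stood at 12300 and Ly6c2 at 19744 per kb, while the monocyte growth factor receptor gene Csf1r stood at 15766 per kb. The granule protein gene S100a9 led the whole table with 1407481 per kb. That the mean covers all 8 samples is an inference from the number of steps. Such a mean cannot tell a gene used by all cells at a moderate level from one used strongly by a part of them. In bulk samples fewer cells of a type and less RNA per cell also cannot be told apart.

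The 10 genes spanned a wide range of levels, from among the most abundant transcripts of these cells to near the median gene. Fos, Junb, Dusp1, Ier2 and Jund, 5 of the 10, were in the top 10% of the table by the authors' mean per kb, and none of the 10 was below the median of all genes listed. Among genes with a mean of 10 or more, however, Fosb, Egr1 and Atf3 were below the median per kb, at the 24.3, 47.7 and 49.5 percentiles. Fos stood highest with 16133 per kb and Fosb lowest with 49.8 per kb, at the 53.0 percentile. The median over the 10 members was 1466 per kb, against 34.8 over all genes with a length. As deposited, without division by length, their means together made up 0.224% of the sum over the table. For scale, the housekeeping genes Actb and Gapdh stood at 216817 and 84235 per kb, Ppia and B2m at 10329 and 44897, and Hprt and Tbp at 913 and 826.

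**Figure D1:**
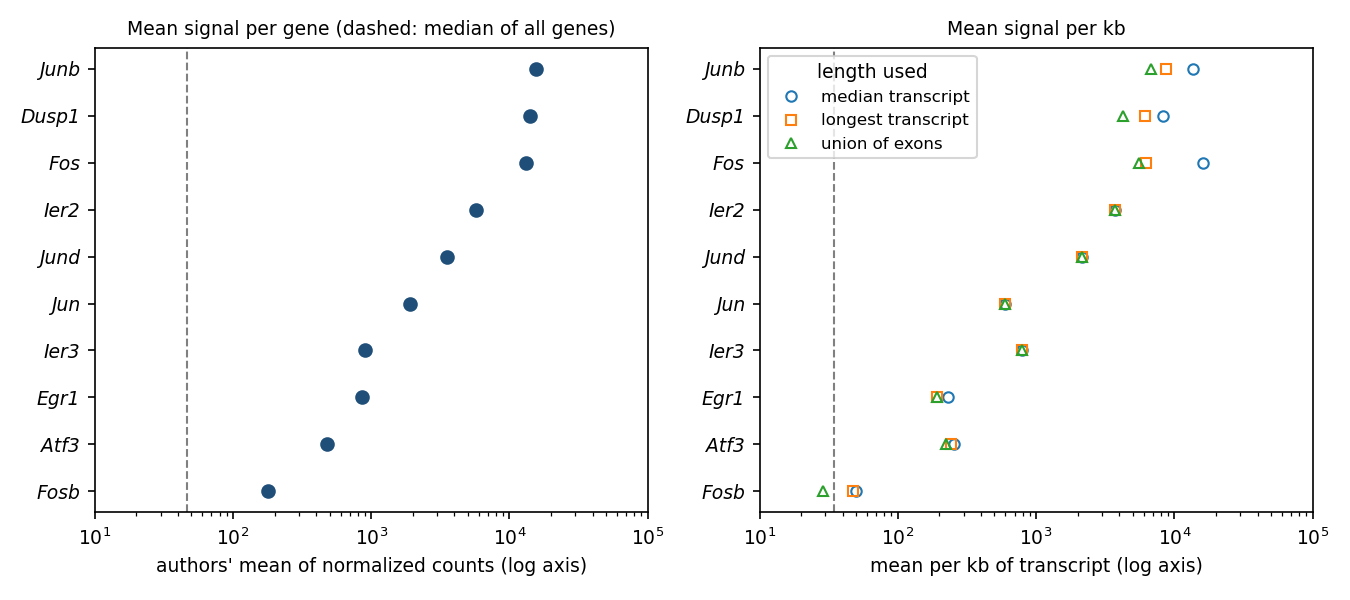
Authors' mean of normalized counts for the 10 genes on log axes, as deposited (left, dashed line at the median of all genes, 46.8) and per kb of transcript under 3 length definitions (right, dashed line at 34.8, the median of all genes per kb of median transcript). Each point is 1 gene, and no error bars can be drawn for a pooled mean. Junb, Dusp1 and Fos lie to the right in both panels, Fosb lies lowest in both, and the choice of length moves Fos the most.

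Fos family proteins are bZIP factors that bind DNA as AP-1 only when paired with a partner such as a Jun protein. Fos (ENSMUSG00000021250) is a gene of the plus strand at chr12:85473890-85477273 on mm10. Its mean as deposited was 13140 normalized counts. Fosb (ENSMUSG00000003545), its close paralog, is a gene of the minus strand at chr7:19302696-19310051, with a mean of 181. Per kb of median transcript, Fos made up 77.9% of the summed level of the 4 Fos family genes. The related gene Fosl2 made up 21.7% of it, Fosb 0.240% and Fosl1 0.106%. With the longest transcript as the length, Fos made up 71.9% and Fosl2 27.5%. The order turned without division by length, where Fosl2 made up 53.9% of the summed means and Fos 45.4%.

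Jun proteins can pair with each other as well as with Fos proteins, and JunB is known to act differently from c-Jun on many targets. Junb (ENSMUSG00000052837) is a gene of the minus strand at chr8:84974484-84978718, with a mean of 15661 normalized counts as deposited. Jund (ENSMUSG00000071076), the Jun gene best known for steady rather than induced expression, is a gene of the plus strand at chr8:70698949-70700616, with a mean of 3561. Jun (ENSMUSG00000052684) is a gene of the minus strand at chr4:95049034-95052222, with a mean of 1903. Per kb of median transcript, Junb made up 83.3% of the summed level of the 3 Jun genes, Jund 13.1% and Jun 3.65%. Junb also led with the union of exons as the length, at 71.4%, beside 22.4% for Jund and 6.25% for Jun.

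In both families the members thus differed widely in level, although Jun, the lowest Jun gene, still stood at the 79.0 percentile of the table per kb. Egr1 and Atf3 encode transcription factors of other families. Egr1 (ENSMUSG00000038418) is a zinc finger factor whose gene is on the plus strand at chr18:34859823-34864984, with a mean of 863 normalized counts as deposited. Atf3 (ENSMUSG00000026628), a bZIP factor of the stress response that often represses its targets, is a gene of the minus strand at chr1:191170296-191218039, with a mean of 482. Per kb they stood close together, at 253 for Atf3 and 230 for Egr1. Within the Egr family Egr1 stood above Egr2 (95.8 per kb) and Egr3 (57.7 per kb).

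Dusp1, Ier2 and Ier3 do not encode sequence-specific DNA-binding factors. Dusp1 (ENSMUSG00000024190), a phosphatase of MAP kinases, is a gene of the minus strand at chr17:26505590-26562128. Its mean was 14096 normalized counts as deposited. Its 8301 per kb stood above those of 2 other phosphatase genes of its family, Dusp2 (574 per kb) and Dusp5 (270 per kb). Ier2 (ENSMUSG00000053560), a small nuclear protein without a well defined activity, is a gene of the minus strand at chr8:84661331-84662852, separated from Junb by 311631 bp, with a mean of 5703. Ier3 (ENSMUSG00000003541), known for effects on cell survival, is a gene of the plus strand at chr17:35821684-35822923, with a mean of 900.

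Per kb of median transcript length the order was Fos (16133), Junb (13612), Dusp1 (8301), Ier2 (3747), Jund (2135), Ier3 (796), Jun (597), Atf3 (253), Egr1 (230) and Fosb (49.8). The first place depended on the annotation, since 3 of the 4 annotated Fos transcripts are noncoding and their median length is 814.5 bases. With the longest transcript the values were 8657 per kb for Junb, 6233 for Fos and 6094 for Dusp1. From Ier2 downwards the order was the same under all 3 length definitions. The spread between samples is unknown, so whether neighbours in this order differ is not known.

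If each step is 1 read, many reads stood behind each mean. That of Junb then rested on between 170886 and 290350 reads summed over the libraries, and that of Fosb on between 1970 and 3348. At the fewest reads the steps allow, the 95% Poisson interval ran from -0.474% to 0.475% around the mean for Junb and from -4.37% to 4.52% for Fosb. The other members lay between these, with interval limits of at most 2.74%. These intervals cover counting error only.

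A list of 32 other immediate early genes spanned a larger range than the 10 members. All 32 were in the table, 10 were in its top 10% per kb, and 8 were below its median. The median of the list was 564 per kb. The highest were the cytokine gene Il1b (36948 per kb), the signalling inhibitor Socs3 (11059), the zinc finger factor Klf6 (9808), Zfp36 (8465), whose product binds AU-rich elements and promotes mRNA decay, and the antiproliferative gene Btg1 (6926). The place of Socs3 depended on its median transcript length of 490 bases. As deposited its mean was 5419, below Klf6 (10936), Btg1 (19631) and Zfp36 (22241), while Il1b (25457) was the highest on both scales. The lowest were Cyr61 (0.502 per kb) and Ctgf (2.42), both best known in fibroblasts and endothelium, Npas4 (2.23) and Arc (5.89), genes of active neurons, and the nuclear receptor gene Nr4a2 (4.91).

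Genes that relay the signal to the immediate early genes were measured well above the median gene. Of 19 such kinases and transcription factors, 12 were in the top 10% of the table per kb and none was below the median. Among the highest were the kinase genes Mapk3 (8501 per kb) and Rps6ka3 (4414), the p38 gene Mapk14 (4041) and the SRF coactivator gene Mkl1 (3791). The lowest were Mkl2 (117 per kb), Elk1 (199), the JNK genes Mapk8 (263) and Mapk9 (289), and Elk3 (426). Srf stood at 3031 and Creb1 at 1889 per kb. Of 9 further bZIP genes related to the Fos, Jun and ATF factors, 1 was in the top 10% (Atf1, 3654 per kb), and Batf3 was the lowest (107).

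**Figure D2:**
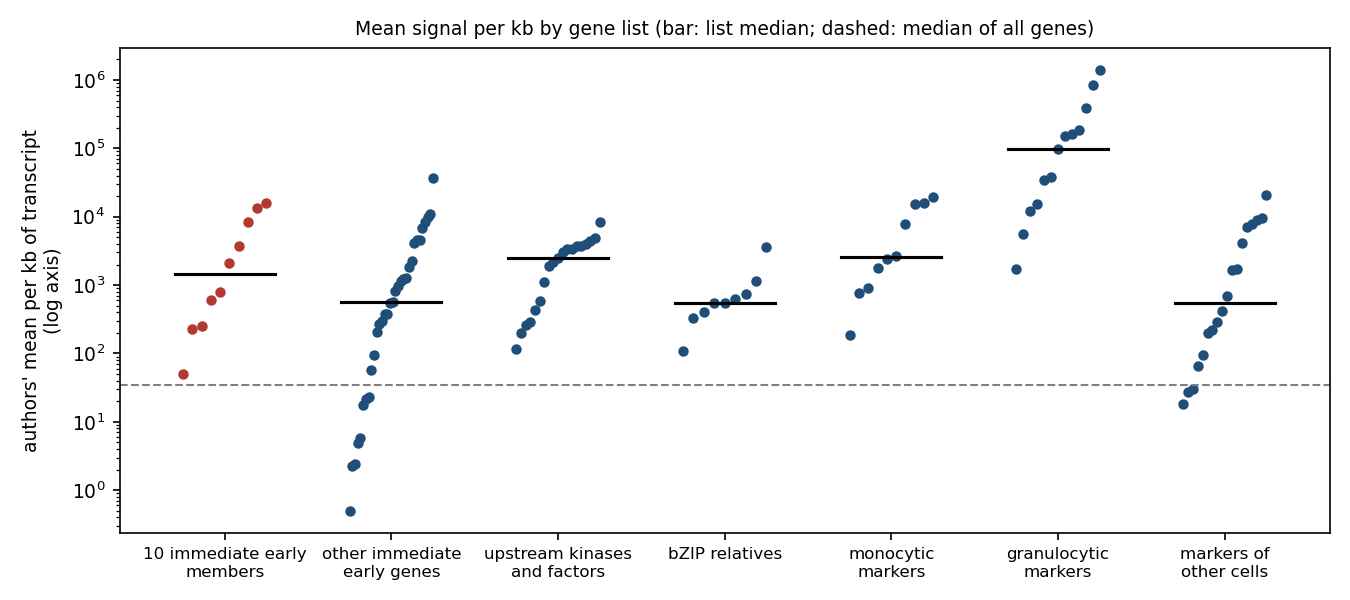
Authors' mean per kb of median transcript on a log axis for each gene of 7 lists, with a black bar at each list's median and a dashed line at the median of all genes, 34.8; each point is 1 gene. The 10 members lie between 49.8 and 16133, the 32 other immediate early genes reach from 0.502 to 36948, and the granulocytic markers lie highest with a median of 96251.

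Markers of erythroid cells, B cells and splenic macrophages were not near 0 in the mean, while those of several other cell types stood much lower. The T-cell gene Cd3e stood at 291 per kb, the basophil gene Mcpt8 at 200 and the platelet gene Pf4 at 95.4. The highest of all these markers per kb was the erythroid haemoglobin gene Hbb-bs (21082 per kb), and its partner Hba-a1 stood at 7815 per kb. As deposited, the mean of Hbb-bs was 8580, below those of Vcam1 (20903), C1qb (10558) and C1qa (9393). The B-cell genes Cd79a and Ms4a1 stood at 4065 and 1687 per kb, and C1qb, C1qa and Vcam1, which mark splenic macrophages, at 9704, 9032 and 6967 per kb. Of the 18 markers of other cells, 6 were in the top 10% of the table per kb and 3 were below its median. These 3 were the dendritic-cell gene Zbtb46 (18.2 per kb), the NK-cell gene Ncr1 (27.3) and Flt3 (30.6). The summed level of the 18 markers was 64113 per kb, against 67542 for the 10 monocytic and 3332502 for the 13 granulocytic markers. S100a9 (1407481 per kb) and S100a8 (840081) were the largest parts of the granulocytic sum. The sums run over different numbers of genes and do not measure amounts of cells. The haemoglobin genes made up 45.1% of the sum per kb over the 18 markers of other cells. That share depended on their short median transcripts, 407 bases for Hbb-bs and 596.5 for Hba-a1. Itgam, which encodes CD11b, the marker of both sorts, made up 22.8% of the monocytic sum. The part of other cells in the members' levels was not tested. Lmna itself stood at 51.8 per kb, and a mean that pools genotypes does not check the knockout label.

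Some annotated genes lie over members on the opposite strand, and the sources used here do not state whether strand entered the counting. The mean of Prdx2, which overlaps Junb, was 5.76% of that of Junb as deposited. That of Ergic1, which overlaps the longest annotated form of Dusp1, was 4.91% of its partner's, while Gm11175 reached 1.44% of Jund and Junos 0.801% of Jun. Without strand, reads of such a pair cannot be told apart where the genes overlap.

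The members share a small number of exons, a property that their choice by name did not use. In GENCODE M21 the longest coding transcript of each of the 10 had 4 or fewer exons, against 24.4% of the 15697 protein-coding genes of the table. Jun, Junb, Jund and Ier2 each had 1 exon, as did 3.82% of coding genes. The median was 2 exons over the members and 8 over the coding genes, and the median length of these transcripts was 1987 against 3001 bases, although Egr1 (4484), Fosb (3782) and Jun (3189) were longer than the latter. In 3' UTR length, 4 of the 10 were above the median of coding genes. Dusp1 and Atf3 were the exceptions in genomic length, with spans of 56539 and 47744 bp over all their annotated transcripts. The median over coding genes was 22634 bp. The RefSeq starts of both lie well inside these spans. A promoter match of Dusp1 given below, at chr17:26508597-26508626, is near the gene's 3' end at 26505590. Lengths from the RefSeq starts were not compared.

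Their 3' UTRs were searched for the pentamer ATTTA, the core of AU-rich elements that mark transcripts for rapid decay. ATTTA occurred in 9 of the 10 members and in 66.1% of coding genes. Ier3 held 5 pentamers, Fos, Dusp1 and Jun held 4 each, and Atf3 held 3. Junb and Egr1 held 2 each, Fosb and Jund held 1 each, and Ier2 held 0. At least 4 pentamers were in 4 of the 10 members and in 27.2% of coding genes. At least 5 were in 1 of the 10 and in 20.7% of coding genes. Per kb of 3' UTR the members' median was 2.89 pentamers and the coding genes' median was 1.201, and 8 of the 10 members lay above the latter. The longer form TATTTAT, which contains ATTTA, was present in 7 of the 10 members and in 28.1% of coding genes. In falling order of level per kb of transcript, the densities per kb of 3' UTR were 4.91 for Fos, 4.12 for Junb and 5.80 for Dusp1. Then followed Ier2 with 0, Jund with 1.88, Ier3 with 8.16, Jun with 3.24, Atf3 with 2.53, Egr1 with 1.64 and Fosb with 0.466. A link between density and level was not tested.

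**Figure D3:**
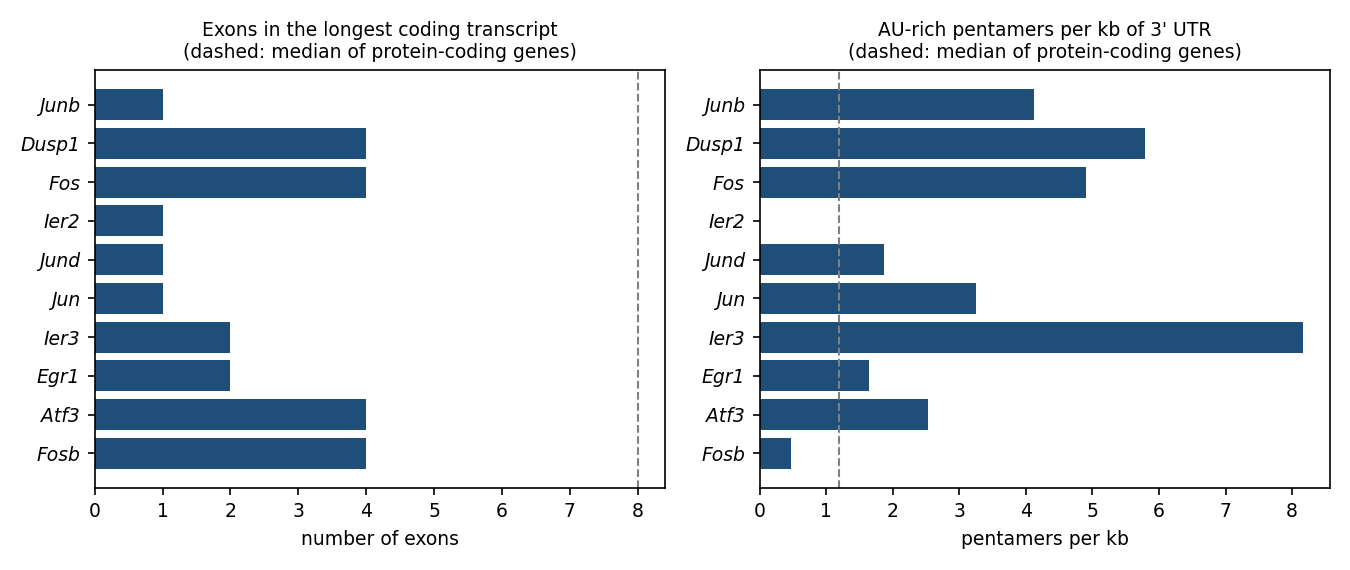
Exons in the longest coding transcript (left) and AU-rich ATTTA pentamers per kb of 3' UTR (right) for each of the 10 genes, with bars from 0 and a dashed line at the median of protein-coding genes in the table (8 exons and 1.201 per kb). All 10 genes lie left of the exon line, and all but Ier2 and Fosb lie right of the pentamer line.

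Promoter windows from 250 bases before to 50 bases after the transcript start were taken from RefSeq on GRCm38.p6, where 8 of the 10 members matched (Egr1 and Ier2 did not). The short core of the cAMP response element, TGACG, searched on both strands, was in 5 of these 8 windows and in 20.8% of all 32851 windows, or 27.6% of those of genes in the table. The matches are shown because no other searched element was in as many of the members' windows. Each line reads 5′ to 3′ on the gene's strand, and capitals mark TGACG or its reverse complement CGTCA.
Fos, at -66 from the start, plus strand, chr12:85473813-85473839: gttccgcccagTGACGtaggaagtcca
Fos, at -129, plus strand, chr12:85473750-85473776: gggcgtagagtTGACGacagagcgccc
Fosb, at -60, minus strand, chr7:19310090-19310116: ggagttgcgggTGACGcaagcgcgggg
Junb, at -106, minus strand, chr8:84978839-84978865: cttcctgacagTGACGcgagccgcctc
Atf3, at -7, minus strand, chr1:191183325-191183351: taatagcattaCGTCAgcctgggattg
Dusp1, at -191, minus strand, chr17:26508648-26508674: tcctaggccgaTGACGtctttgctttt

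The full palindrome of the cAMP response element, TGACGTCA, which contains the core on both strands, was in 1 of the 8 windows and in 1.79% of all windows. It lay in Dusp1 at -143, where the capitals mark it.
Dusp1, at -143, minus strand, chr17:26508597-26508626: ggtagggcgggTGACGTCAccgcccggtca

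The TGACG core was in the windows of Fos, Junb, Dusp1, Atf3 and Fosb. By level per kb these genes were 1st, 2nd, 3rd, 8th and 10th of the 10. It was not in the windows of Jund, Ier3 and Jun, which were 5th, 6th and 7th. A link between the core and level was not tested. The TATA element TATAAA was in the windows of Fos and Junb, in 13.6% of all windows and in 8.30% of those of genes in the table. The match in Junb began at the RefSeq start that set its window, so by RefSeq only Fos held it before the start. By GENCODE the Junb match also lies before the start. With its flanks it is at chr8:84978732-84978759, and the minus-strand gene starts at 84978718 there. The EGR site GCGNGGGCG was in that of Fosb and in 5.55% of all windows. The AP-1 site TGANTCA and the CArG box, to which SRF binds, were in none of the 8 windows, and were in 7.81% and 1.63% of all windows. A match describes letters in this window only, and elements further from the start were not searched.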

How the data were processed

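Myeloid cells were sorted from mouse spleen and their RNA sequenced by the authors in 8 samples. Per the labels and the study's methods, the authors used cutadapt 1.14 for trimming, STAR 2.5.2b for alignment to mm10, RSEM 1.3.0 for quantification on GENCODE M12, and DESeq2 1.20.0 for testing. The authors' deposited table holds 1 signal per gene, the mean of counts divided by size factors, which was used as deposited. It also holds 6 columns of the authors' own comparison of genotypes in 1 subset (fold changes, the error, the test statistic and p-values), which were not used. The design had foreseen a count test for values per sample, but the table has 1 mean per gene, so no test was run. Total counts per sample were not analysed here, and precision was read from the steps in the lowest means.

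Of the 23084 gene IDs, 23004 had an entry in GENCODE M21 (mm10, newer than M12), which gave positions, lengths and exons. Levels of different genes were compared per kb of the median length over a gene's annotated transcripts. Apart from the members, the Fos family and the genes where it is stated, orders within lists were given under this length definition only. Older symbols were matched through RefSeq synonyms. The step search was tested on simulated means of 4450 genes and found the 8 steps that were simulated. The simulation used 8 libraries, size factors all above 1 and the least read numbers seen in the data. It is therefore no independent check of the number of libraries. Poisson intervals at 95% used scipy 1.17.1 under Python 3.11.15. The members and gene lists were chosen with earlier results of these data known. All 10 members were named, and of each other list at most the 5 highest and the 5 lowest genes. Some genes of these lists are not reported here by name. The further genes of the Fos, Egr and Dusp families, Srf, Creb1, the overlapping genes, Lmna and several cell markers were named outside this rule, after their values were seen. The search of 3' UTRs was also added after the levels were seen.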

Additional observations from a re-analysis of the deposited data

How the results depend on the processing

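No paired analysis was possible because each gene has 1 pooled mean and no value for any single library. The count test, its other normalizations and filters, and the fits without each replicate could not be run either, and how far any level depends on 1 library is unknown. The count of members in the top 10% by the mean as deposited was 5 among all genes, among genes with a mean of 10 or more, among protein-coding genes and without duplicated symbols. Per kb it was 5 with the median transcript, 6 with the longest, 7 with the union of exons and 4 among genes with a mean of 10 or more. The longest coding transcript, chosen after seeing the data, gave 6. Among genes with a mean of 10 or more, Fosb, Egr1 and Atf3 fell to the 24.3, 47.7 and 49.5 percentiles per kb. By the mean as deposited Fosb alone was below the median there (37.6 percentile) and among protein-coding genes (45.0 percentile). The share of promoter windows with TGACG was 20.8% over all genes, 27.6% over genes in the table and 17.8% in the 250 bases before the start only, where 5 members still held it. The steps numbered 8 also with values under 0.3 alone, a limit chosen after seeing the data.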

Other observations

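With each step taken as 1 read, the 1215 genes with a mean under 0.4 that were a whole sum of the steps in only 1 way had 3 or more reads over the 8 libraries, and at least 2 of these reads came from the same library in every gene. None of the other libraries had a read in all of these genes. Which sample that library is was not determined, and the 10 immediate early genes, at 1970 reads or more each, lie far above this range.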
